A study of Mus musculus with 6 samples.

Results

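Nuclear receptors of the lipid-sensing kind are transcription factors that bind a fat-soluble molecule and change the output of the genes they sit on. PPARs bind fatty acids and their derivatives, the LXR Nr1h3 binds oxysterols, the FXR Nr1h4 binds bile acids, and PXR (Nr1i2) and CAR (Nr1i3) respond to bile acids, steroids and foreign compounds. Most of them work as a pair with the retinoid X receptor Rxra, while Hnf4a and Nr5a2 act alone or with their own kind and maintain hepatocyte functions such as lipoprotein and bile acid production. In the liver of a mouse on a fatty diet these receptors set fat burning, fat storage, cholesterol disposal and detoxification.

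The receptors and partners described here were Ppara, Ppard, Pparg, Rxra, Nr1h3, Nr1h4, Nr1i2, Nr1i3, Hnf4a and Nr5a2, taken as every array feature (probe set) annotated to exactly 1 of them. That gave 22 probe sets for 10 genes among 45037 probe sets tested, and 1 more probe set was left out because it was annotated to Ppard together with another gene. The brightest probe set over all arrays stands for a gene, and the others are given as well. By Benjamini-Hochberg adjusted p under 0.05 in limma, 0 of the 22 probe sets differed between the strains, where 25 of all 45037 probe sets (0.0555%) did. None of the 10 genes lies on chromosome 12, the chromosome by which the strains differ.

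Livers came from male A/J-12SM mice, a consomic strain that carries chromosome 12 of SM/J on an A/J background, and from male A/J mice. Both strains ate a high-fat diet for 7 weeks, and the labels give neither the age of the mice nor a group on ordinary chow. Each strain had 3 Affymetrix arrays, and each array held liver RNA pooled from 3 mice, so the spread between arrays is that of pools and not of single animals. Signals were taken as log2 after the arrays were brought to 1 common distribution (quantile normalization), and every difference below is A/J-12SM minus A/J on that scale, where 1 unit is a doubling. A p-value here rests on the spread between 3 pools per strain. In limma the spread of each probe set is drawn toward that of probe sets of like brightness.

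The hepatocyte markers were bright on every array, with a summed signal of 128000 to 130700 in A/J-12SM livers and 124200 to 126900 in A/J livers. The deposited signals ran lower in A/J-12SM livers, with trimmed means of 170.5 to 185.8 against 200.5 to 213.2 in A/J livers, and without normalization the median probe set differed by -0.22. The array of A/J-12SM replicate 3 had a β-actin 5′ to 3′ signal ratio of 0.423, against 0.5527 to 0.5904 on the other 5 arrays. Its GAPDH 5′ to 3′ ratio of 1.534 lay inside the 1.454 to 1.546 of the other 5, so the 2 controls differed. Of the 22 receptor probe sets, 18 were no dimmer than the median of the array. Over those 18, that array lay a median of 0.27 on the log2 scale from the mean of the other arrays of its strain, where the other 5 arrays lay 0.09 to 0.21 away. Over all 22519 probe sets at or above that median it lay 0.24 away, and the other 5 arrays 0.14 to 0.19.

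Most receptors had close to the same signal in both strains. Over the 18 brighter probe sets the median absolute difference was 0.06. Over all 22519 probe sets no dimmer than the median of the array it was 0.14. These groups were not matched for brightness, so the lower value cannot be read as receptors being steadier than other genes. Of the 22 probe sets, 12 were lower in A/J-12SM livers and the median difference was -0.01. With no adjustment for the number of tests, 3 of 22 passed p under 0.05, and over all probe sets 6.23% did. Signals of the strains did not overlap for 2 of 22, and over all probe sets for 12%. These 3 were probe sets of Pparg, Nr1i2 and Nr5a2.

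**Figure D1:**
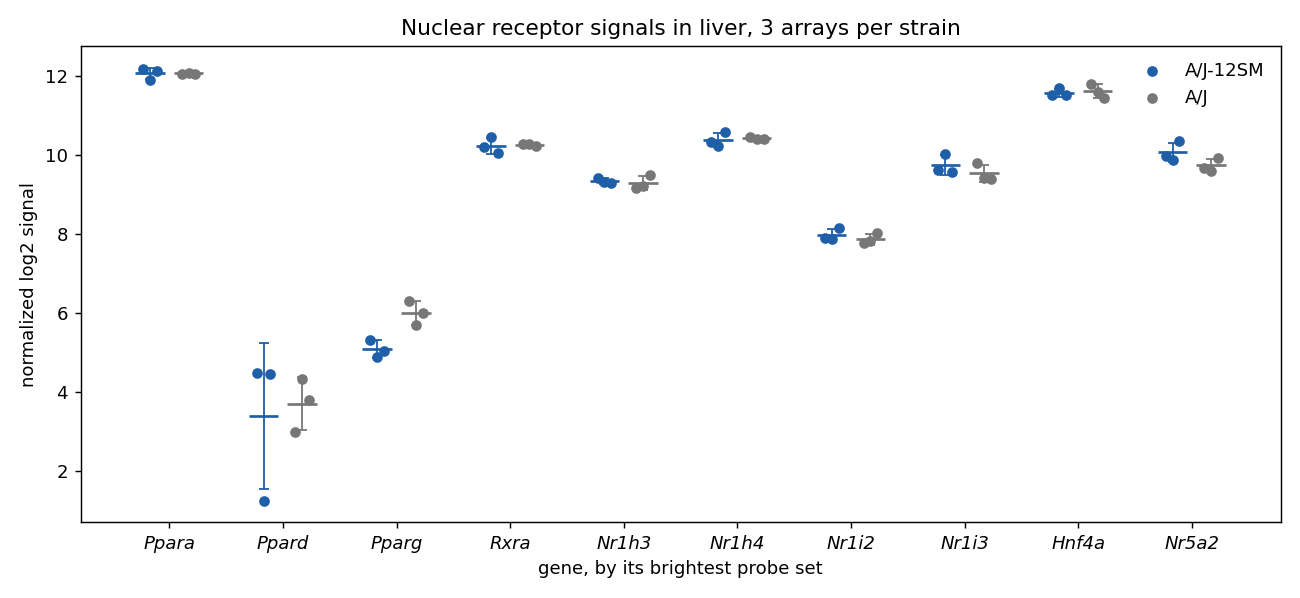
Normalized log2 signal of the brightest probe set of each of 10 nuclear receptor genes, A/J-12SM to the left of A/J, 1 point per array. Lines are means and bars are SD over 3 arrays; Pparg is the gene whose strains do not overlap, and Ppard scatters near background. Signals of different genes come from different probes and are not comparable as amounts.

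Pparg is the PPAR that drives fat storage in adipocytes and is known to be raised in fatty liver of mice. It had the largest difference among the receptor probe sets, whether or not the dim ones are counted. Its probe set read 5.33, 4.90 and 5.03 in A/J-12SM livers, against 6.30, 5.70 and 6.01 in A/J livers. All 3 A/J-12SM arrays were below all 3 A/J arrays. The means were 5.09 ± 0.22 in A/J-12SM livers and 6.01 ± 0.30 in A/J livers (SD, n = 3 each). The difference was -0.92 (SE 0.29), a ratio of 0.529 with a 95% interval of 0.338 to 0.83. Its limma adjusted p was 0.653 over all probe sets, so Pparg was not called. In the deposited signals the values were 34.29, 30.56 and 29 in A/J-12SM livers and 91.23, 58.64 and 64.66 in A/J livers. The probe set stood at the 53.3rd percentile of brightness as a mean over both strains. On each A/J-12SM array its deposited signal was below that array's median signal (36.5, 43.8 and 38.2). On each A/J array it was above that array's median signal (49.9, 48.6 and 41.4). Its place above the middle thus came from the A/J arrays. Across the 15 alternative treatments of the data the difference ran between -1.17 and -0.77 with adjusted p between 0.217 and 0.987, and it was -0.89 without A/J-12SM replicate 3.

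The array has 1 probe set for Pparg, while RefSeq lists several start sites for the gene, from which transcripts of different PPARγ forms begin. The signal above is for the gene and does not separate these transcripts. The 250 bases before each of its start sites on GRCm38.p6 are shown because they mark where those transcripts begin and because many receptors of this family bind the half-site AGGTCA. The windows lie on the plus strand at chr6:115360894-115361143, chr6:115362099-115362348 and chr6:115421816-115422065, and capitals mark the half-site.
Pparg window 1: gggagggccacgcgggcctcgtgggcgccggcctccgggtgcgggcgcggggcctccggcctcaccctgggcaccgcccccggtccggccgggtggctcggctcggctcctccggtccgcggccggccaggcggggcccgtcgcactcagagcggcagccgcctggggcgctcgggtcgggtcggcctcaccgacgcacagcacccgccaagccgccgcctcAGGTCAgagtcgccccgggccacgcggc
Pparg window 2: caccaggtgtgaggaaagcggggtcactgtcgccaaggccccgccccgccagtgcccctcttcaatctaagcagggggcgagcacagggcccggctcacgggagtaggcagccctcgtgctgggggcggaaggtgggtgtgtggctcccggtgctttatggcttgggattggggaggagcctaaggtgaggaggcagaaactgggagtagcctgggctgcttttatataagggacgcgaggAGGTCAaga
Pparg window 3: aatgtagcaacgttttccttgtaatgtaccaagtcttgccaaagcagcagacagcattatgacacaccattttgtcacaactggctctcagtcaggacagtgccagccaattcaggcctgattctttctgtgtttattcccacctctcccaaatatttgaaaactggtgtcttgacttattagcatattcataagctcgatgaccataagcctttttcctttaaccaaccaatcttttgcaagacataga
A half-site began 28 bases before the first start and 9 bases before the second, and the third window held none on either strand. Over the 16 RefSeq windows of the 10 receptors, 5 held AGGTCA or its complement TGACCT (31.2%), against 4607 of all 32851 RefSeq promoter windows of that length (14.0%). The other windows that held it belonged to Rxra, Nr1h4 and Nr5a2, and 80 bases of each are given from chr2:27709185-27709264 (plus strand), chr10:89506813-89506892 (minus strand) and chr1:136960453-136960532 (minus strand).
Rxra: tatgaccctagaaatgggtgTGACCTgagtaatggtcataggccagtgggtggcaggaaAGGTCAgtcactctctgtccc
Nr1h4: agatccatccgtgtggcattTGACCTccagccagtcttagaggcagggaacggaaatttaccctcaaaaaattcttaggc
Nr5a2: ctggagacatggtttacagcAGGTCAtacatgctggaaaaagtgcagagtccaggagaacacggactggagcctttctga
Such a match describes the letters only and is no measure of binding.

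Ppara, the main fatty acid sensor of hepatocytes and the switch for fat burning in fasting, was among the brightest genes on the array. It read 12.16, 11.90 and 12.13 in A/J-12SM livers, against 12.04, 12.08 and 12.05 in A/J livers. The strains overlapped, and the difference was 0.01 with a 95% interval of -0.19 to 0.21 (adjusted p = 0.992). The interval leaves room for changes smaller than about that size in either direction. Its other probe sets differed by -0.06 and -0.03.

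Ppard, the PPAR expressed in most tissues, was near background. Its brighter probe set, at the 25.5th percentile, read 4.48, 1.26 and 4.46 in A/J-12SM livers and 2.99, 4.34 and 3.81 in A/J livers. A/J-12SM replicate 2 stood far below the other arrays. The difference of -0.32 had an interval of -2.35 to 1.71, and it turned to 0.75 without that array, so no direction could be read for Ppard at this signal. The other probe set was at the 2.62nd percentile and differed by 0.19.

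Rxra, the shared partner of most of these receptors, read 10.20, 10.44 and 10.04 in A/J-12SM livers, against 10.28, 10.27 and 10.22 in A/J livers. The A/J arrays lay inside the range of the A/J-12SM arrays. The difference was -0.03, and it was 0.06 without A/J-12SM replicate 3. A further bright probe set gave -0.04, and a dim one at the 10.7th percentile gave 0.30.

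**Figure D2:**
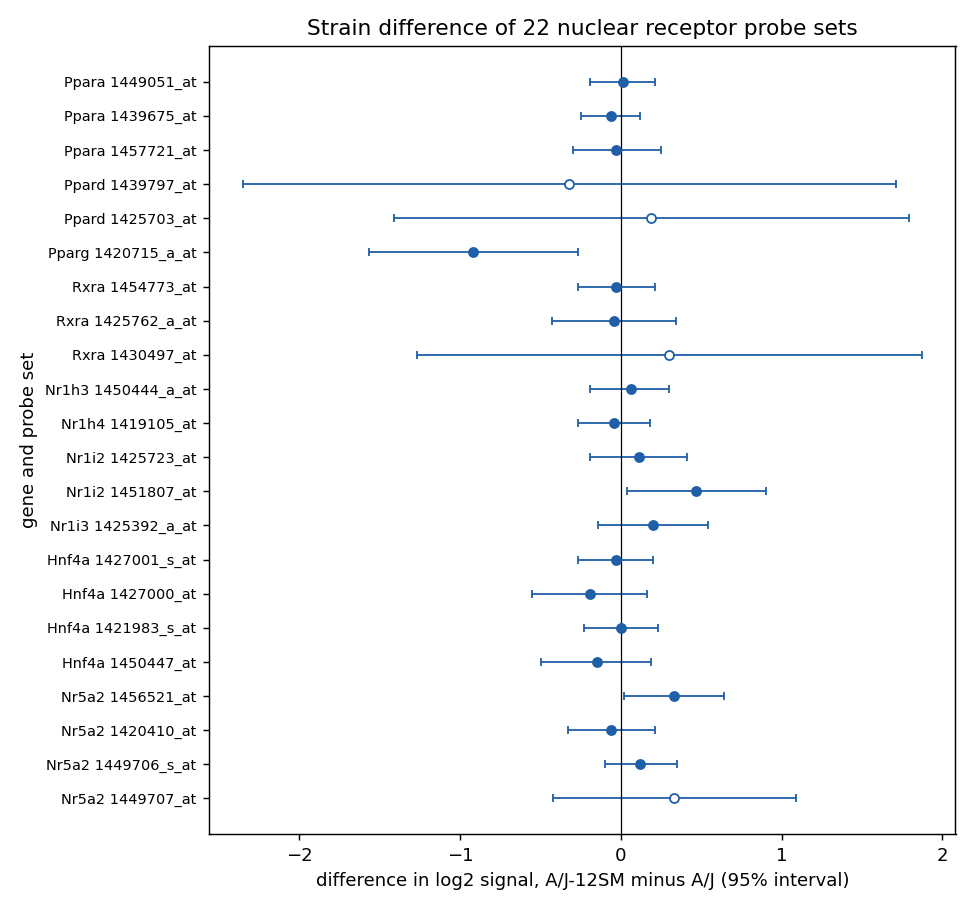
Difference in log2 signal, A/J-12SM minus A/J, for all 22 probe sets of the 10 receptor genes, with 95% intervals from limma. Filled points are at or above the median brightness and open points below it; Pparg lies at -0.92, and the 4 dim probe sets have the widest intervals.

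Nr1h3 (LXRα), the oxysterol sensor that turns on cholesterol export and fat synthesis, read 9.42, 9.32 and 9.28 in A/J-12SM livers, against 9.15, 9.22 and 9.49 in A/J livers. The strains overlapped, with a difference of 0.06 and an interval of -0.19 to 0.30. Nr1h4 (FXR), which lowers bile acid synthesis when bile acids are high, read 10.32, 10.22 and 10.57 in A/J-12SM livers and 10.45, 10.40 and 10.40 in A/J livers. Its difference was -0.04, with an interval of -0.27 to 0.18. Both receptors have 1 probe set here.

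Nr1i2 (PXR), a sensor of bile acids and drugs that raises Cyp3a genes, had a pair of probe sets that differed in how far the strains stood apart. The brighter one read 7.91, 7.87 and 8.16 in A/J-12SM livers, against 7.76, 7.82 and 8.02 in A/J livers, and the strains overlapped. The difference there was 0.11 with an interval of -0.19 to 0.41, and 0.02 without A/J-12SM replicate 3. The other read 7.49, 7.45 and 7.91 in A/J-12SM livers and 7.20, 6.83 and 7.42 in A/J livers, and every A/J-12SM array was above every A/J array. Its difference was 0.47 (SE 0.19) with an adjusted p of 0.789, and 0.32 without A/J-12SM replicate 3. The gap between the probe sets was not tested.

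Nr1i3 (CAR), the receptor behind phenobarbital induction of Cyp2b genes, read 9.62, 10.03 and 9.56 in A/J-12SM livers, against 9.79, 9.41 and 9.39 in A/J livers. The strains overlapped. The difference was 0.20 with an interval of -0.14 to 0.54 (adjusted p = 0.867). It lay between 0.06 (without A/J-12SM replicate 2) and 0.33 (without A/J replicate 1) when 1 array was left out.

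Hnf4a, which holds the hepatocyte programme of secreted proteins, read 11.52, 11.68 and 11.51 in A/J-12SM livers and 11.79, 11.58 and 11.44 in A/J livers. The difference was -0.03. Its 4 probe sets lay between -0.19 and 0 and all overlapped between the strains.

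Nr5a2 (LRH-1), a phospholipid-binding receptor that takes part in bile acid synthesis, read 9.97, 9.87 and 10.34 in A/J-12SM livers, against 9.67, 9.60 and 9.93 in A/J livers. The lowest A/J-12SM array was below the highest A/J array. The difference was 0.33 (SE 0.14), with an interval of 0.02 to 0.64 and an adjusted p of 0.792. It was 0.19 without A/J-12SM replicate 3. The next brightest probe sets of the gene differed by -0.06 and 0.12, and a dim one by 0.33, so the probe sets of Nr5a2 did not share a direction.

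Genes whose signals followed a receptor over the 6 arrays were looked up among 11041 other genes at or above the median brightness. For Pparg the closest were Rfk, which makes flavin mononucleotide from riboflavin, and Marchf3, a ubiquitin ligase, both with Pearson r = 0.98. With 6 arrays in 2 strains such values are common, and 25 genes exceeded 0.95 for Pparg. For the other receptors at or above the median brightness the closest genes reached 0.979 to 0.995, and 12 to 124 genes exceeded 0.95.

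The target genes of each receptor were then read from lists of known targets, by each gene's brightest probe set. Among all 18193 genes 5 were called higher in A/J-12SM livers (0.0275%) and 7 lower (0.0385%), 6.78% passed p under 0.05 with no adjustment, 9258 were lower, and the median difference was -0.01. A gene can stand in more than 1 list, so the lists are not independent of each other.

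PPARG targets of fatty liver were the list with the most calls. Of 14 genes 12 were measured, 2 were called lower in A/J-12SM livers and 0 higher, 8 were lower, and the median difference was -0.12 (-0.36 without A/J-12SM replicate 3). Of the 12, 5 passed p under 0.05 with no adjustment, 4 of them lower (Cd36, Fitm1, Mogat1 and G0s2) and 1, the dim Cidea, higher. The list was drawn up with several of these differences already known, so its count is no independent evidence of a direction.

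Cd36, a transporter that takes fatty acids into cells, fell to 9.93, 9.40 and 9.41 in A/J-12SM livers, against 11.03, 10.76 and 11.20 in A/J livers. The difference was -1.41 (SE 0.16, adjusted p = 0.0203), and its other probe sets gave -1.50 and -0.91. Fitm1, which partitions fat into lipid droplets, fell to 7.53, 8.06 and 7.16 in A/J-12SM livers, against 9.24, 8.96 and 9.10 in A/J livers. The difference was -1.51 (SE 0.20, adjusted p = 0.0469). For both genes every A/J-12SM array was below every A/J array. With 1 array left out, Cd36 was called only without A/J-12SM replicate 1 (adjusted p = 0.00737) and had adjusted p of 0.0525 to 0.132 without any 1 of the others, and Fitm1 was called only without A/J-12SM replicate 2 (adjusted p = 0.0147) and had 0.0525 to 0.266 otherwise. Over all 15 alternatives Cd36 was called under 7 and Fitm1 under 5. Differences ran between -1.61 and -1.28 for Cd36 and between -1.76 and -1.30 for Fitm1. A test for 2 groups that used each probe set's own spread called neither (adjusted p = 0.615 for Cd36 and 0.669 for Fitm1). With 3 pools per strain that test called 1 probe set of all 45037, so it could hardly decide on either gene.

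Other genes of this list, chosen for mention after their values were seen, were Mogat1, G0s2, Cidec, Cidea, Plin4 and Fabp4. Mogat1, a triglyceride synthesis enzyme, read 6.69, 6.58 and 6.49 in A/J-12SM livers, against 7.58, 7.32 and 7.43 in A/J livers (difference -0.86, adjusted p = 0.206). G0s2, an inhibitor of the lipase Pnpla2, read 9.97, 10.57 and 10.42 in A/J-12SM livers, against 11.19, 10.96 and 10.97 in A/J livers (difference -0.72, adjusted p = 0.317). Neither was called, and the strains did not overlap for either gene. Cidec, a lipid droplet protein, was dim at the 35.1st percentile with a difference of -1.02 (adjusted p = 0.807). Cidea, a related lipid droplet protein, was dimmer still at the 28.6th percentile and had the largest difference of the list, in the other direction. It read 4.91, 3.50 and 5.59 in A/J-12SM livers, against 1.94, 2.68 and 4.20 in A/J livers, with overlap of the strains and a difference of 1.73 (SE 0.77, adjusted p = 0.80). The lipid droplet protein Plin4 and the fatty acid carrier Fabp4 overlapped between the strains, with differences of -0.08 and 0.12.

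**Figure D3:**
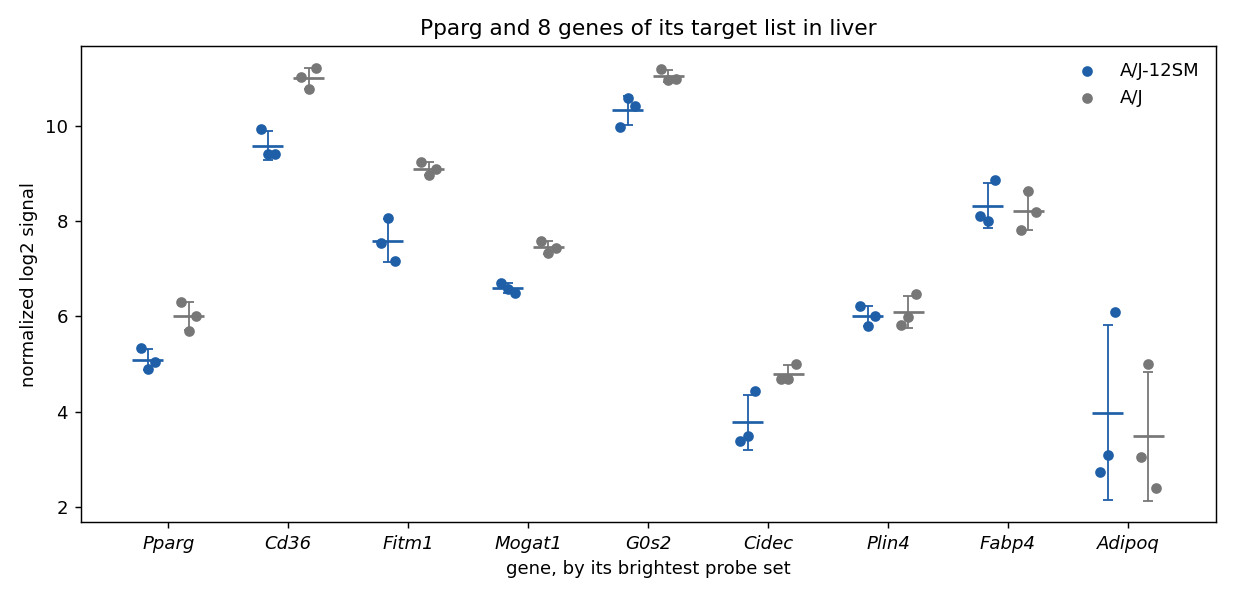
Normalized log2 signal of Pparg and 8 of the 12 measured genes of its target list, picked by hand. A/J-12SM stands to the left of A/J, with 1 point per array. Not shown are Fitm2, Lpl, Retsat and the dim Cidea, which differed by 1.73 in the other direction with overlap of the strains. Lines are means and bars are SD over 3 arrays; Cd36 and Fitm1 were called, while Mogat1, G0s2 and Cidec show no overlap without being called and Plin4, Fabp4 and Adipoq overlap.

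Markers of other cells stood beside these differences as follows. The 12 of 12 Kupffer cell and macrophage markers were lower in A/J-12SM livers, with 0 called, a median difference of -0.29 (-0.44 to -0.19 with 1 array left out) and a summed signal of 6443 to 8102 against 7443 to 9275 in A/J livers. Of 4 measured adipocyte markers 1 was lower, and their summed signal was 277.8 to 585.1 in A/J-12SM livers and 238.8 to 442 in A/J livers. Their median difference was 0.30, and -0.34 without A/J-12SM replicate 3. The marker Lep was near background in both strains. Adipoq was dim and uneven, with 2.74, 3.09 and 6.08 in A/J-12SM livers against 3.05, 5.00 and 2.40 in A/J livers. On A/J-12SM replicate 3, Fabp4 (8.86) and Cidea (5.59) were also the highest of all arrays. Pparg and Cd36 are known to be expressed in macrophages and adipocytes as well as in hepatocytes. In whole liver, fewer cells of a type and less RNA per cell cannot be told apart, and the part of these cells in the Pparg and Cd36 signals was not tested.

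PPARA targets, the enzymes of fatty acid oxidation and its regulators, had 0 called of 22 measured (26 in the list), with 15 lower and a median difference of -0.03. Vnn1, a pantetheinase, came closest to the threshold. It read 10.72, 11.12 and 10.96 in A/J-12SM livers, against 11.64, 11.96 and 11.78 in A/J livers (difference -0.86, SE 0.12, adjusted p = 0.0575). Vnn1 passed the threshold under 3 of 15 alternatives, and its adjusted p ran between 0.0144 and 0.662. The lipid droplet coat gene Plin2 differed by -0.42, with no overlap of the strains (adjusted p = 0.678), and by -0.24 without A/J-12SM replicate 3. Acot1, an acyl-CoA thioesterase encoded on chromosome 12, differed by 0.66 the other way (adjusted p = 0.317).

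LXR targets had 0 called of 15, with 7 lower and a median of 0.02. The largest differences among the brighter ones were 0.34 for Mlxipl, the carbohydrate-response factor ChREBP, -0.31 for the fatty acid synthase Fasn and 0.25 for the sterol exporter Abcg5. With 1 array left out, Fasn ran from -0.50 to -0.19, and none of the 3 changed direction. FXR targets had 0 called of 14, with 8 lower and a median of -0.04. There the bile acid 12α-hydroxylase Cyp8b1 differed by -0.43, the apolipoprotein Apoc2 by -0.34 and the bile salt export pump Abcb11 by 0.32. Cyp8b1 read 12.17, 12.18 and 11.31 in A/J-12SM livers, and its difference was -0.14 without A/J-12SM replicate 3, the array with the low actin ratio. Members of each list stood on both sides of 0. The FXR list includes genes of bile acid synthesis, which FXR lowers. Its median and its count of lower genes therefore give no direction of FXR output.

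PXR targets had 0 called of 9 measured (11 in the list), with 5 lower and a median of -0.01. The heme synthesis enzyme Alas1 differed by 0.54, the organic anion carrier Slco1a4 by 0.41 and the conjugate exporter Abcc3 by -0.30. Alas1 read 10.73, 10.64 and 10.02 in A/J-12SM livers, against 8.85, 10.26 and 10.65 in A/J livers, and its difference was 0 without A/J replicate 1. Slco1a4 ran from 0.11 (without A/J-12SM replicate 3) to 0.68 (without A/J replicate 1). Neither difference was larger than the spread between arrays. CAR targets had 0 called of 11 measured (12 in the list), with 7 lower and a median of -0.38. Without A/J-12SM replicate 2 that median was -0.06, and without any 1 of the other arrays it lay between -0.40 and -0.23. Cyp2b13 differed by -0.68 and Cyp2c37 by 0.51, both cytochrome P450 genes of families with close copies whose probes may share signal. Cyp2b13 was at -0.11 without A/J-12SM replicate 2 and at -1.16 without A/J-12SM replicate 3, and Cyp2c37 ran from 0.28 (without A/J replicate 3) to 0.94 (without A/J replicate 1). The glutathione transferase Gstm3 differed by -0.51, between -0.62 and -0.43 with 1 array left out.

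HNF4A targets had 1 called lower and 0 higher of 20 measured (22 in the list), with 10 lower and a median of 0. The called gene was Apoa4, an apolipoprotein of triglyceride-rich particles that the liver makes in larger amounts when it is fatty. Apoa4 fell to 11.49, 11.22 and 11.17 in A/J-12SM livers, against 12.18, 12.28 and 12.28 in A/J livers. The difference was -0.96 (SE 0.10, adjusted p = 0.0141), and the other probe set of the gene gave -1.27. With 1 array left out the call held without A/J-12SM replicate 1 (adjusted p = 0.00913) and without A/J-12SM replicate 3 (0.0167), and adjusted p was 0.0598 to 0.125 without any 1 of the other 4. Over all 15 alternatives Apoa4 was called under 8, with adjusted p up to 0.535.

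NR5A2 targets had 0 called of 11 measured (13 in the list), with 6 lower and a median of -0.06, which was 0.10 without A/J-12SM replicate 1 or 3. Plk3, a stress-responsive kinase, differed by 0.86 (adjusted p = 0.485) and Apom, the apolipoprotein that carries sphingosine 1-phosphate, by 0.55 (adjusted p = 0.317). Both read higher on every A/J-12SM array than on every A/J array. A second Apom probe set of like brightness differed by only 0.21 (adjusted p = 0.833). Cyp8b1, which stands in the FXR list as well, was the third of the larger differences.

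**Figure D4:**
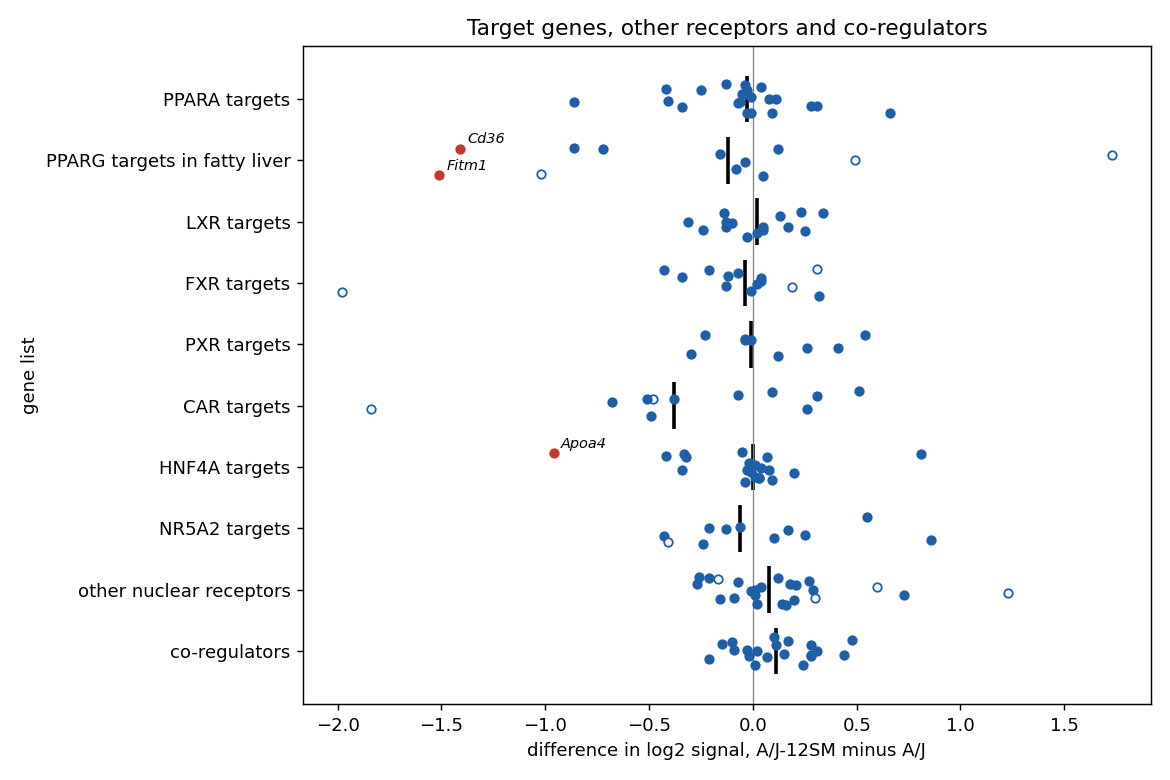
Difference in log2 signal, A/J-12SM minus A/J, for the genes of 10 lists, 1 point per gene by its brightest probe set. Black bars are list medians, red points are the called genes Cd36, Fitm1 and Apoa4, and open points are below the median brightness; the medians lie between -0.38 for CAR targets and 0.11 for co-regulators.

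Other nuclear receptors of liver had 0 called of 24 measured (27 in the list), with 8 lower and a median of 0.08. Rxrb, a second retinoid X receptor, read 9.06, 8.55 and 8.31 in A/J-12SM livers, against 8.33, 7.38 and 8.01 in A/J livers. The arrays of the strains overlapped, and the difference was 0.73 (SE 0.25, adjusted p = 0.708), or 0.47 without A/J replicate 2. The estrogen-related receptor Esrra differed by 0.29 and the estrogen receptor Esr1 by -0.27. Other probe sets of these genes gave -0.19 for Esrra and -0.08 and -1.02 for Esr1, the last one dim. With 1 array left out Esrra ran from 0.14 (without A/J-12SM replicate 3) to 0.37 and Esr1 from -0.41 to -0.16.

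Co-regulators, the proteins that receptors recruit to turn genes on or off, had 0 called of 20 measured (22 in the list), with 6 lower and a median of 0.11. Lpin1, a phosphatidate phosphatase that also co-activates PPARα and is encoded on chromosome 12, differed by 0.48 (adjusted p = 0.586). Ppargc1b, a co-activator of fat oxidation and lipogenesis, differed by 0.44, and Tbl1x, an exchange factor of co-repressor complexes, by 0.31. Ppargc1b differed by 0.20 without A/J-12SM replicate 3. All 3 A/J-12SM arrays were above all 3 A/J arrays for Lpin1. The same held for Ppargc1b, though its lowest A/J-12SM array and its highest A/J array both rounded to 8.93. The strains overlapped for Tbl1x.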

How the data were processed

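Liver RNA of 6 pools (3 mice each, 3 pools per strain) was hybridised to 1-colour Affymetrix arrays. The authors deposited a table of MAS5 signals, a linear intensity per probe set that is already background-corrected, and the scaling of the arrays is not given in the sources used here. Of 45101 probe sets, 64 controls were removed and 45037 tested. Signals were log2 transformed, quantile normalized and fitted with limma (version 3.58.1 in R 4.3.3, with a trended prior) on strain alone, and p-values were adjusted over all probe sets by Benjamini-Hochberg. No probe set was dropped for low signal in the main fit. Dim signals scattered more (median replicate SD 0.8631 below the median brightness, 0.2072 above it), and the trended prior let the variance follow brightness. Depth has no meaning for arrays, and their number limits the precision. Genes were named from the platform annotation, 34945 probe sets having 1 gene, of which 34741 were matched by gene ID to GRCm38.p6. Probe sets with several genes (932) or none listed (9160) were tested but not named.

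In each list the text named up to 4 called genes or, where none was called, the 3 brighter ones with the largest differences. The receptors and lists were chosen with earlier results of these data known. Marker lists not described in the report had 0 called in each. Their median differences, with the range when 1 array was left out, were 0.03 for stellate cells (0.04 to 0.47), -0.01 for endothelial cells (-0.04 to 0.07), -0.60 for bile duct cells (-0.75 to -0.36, and 0.07 by means over probe sets), 0.17 for T and B cells (-0.16 to 0.23), -0.19 for pancreatic acinar cells (-0.47 to -0.18) and 0.04 for hepatocytes (0.01 to 0.06). Of 9 stellate markers 8 were higher in A/J-12SM livers, 2 of them, Reln and Lum, at p under 0.05 with no adjustment. Alternatives were the deposited values, other scalings, an offset, a filter on dim probe sets and another variance prior. Further ones were Student's test for 2 groups, a replicate block, means over probe sets and leaving out each array. The fit was tested on simulated data. Protein sequences were not used here.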

Additional observations from a re-analysis of the deposited data

How the results depend on the processing

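None of the 315 differences computed for receptor probe sets under the alternatives passed adjusted p under 0.05, and the lowest adjusted p was 0.217, for Pparg in the deposited values. The limits are those of 3 pools per strain and of dim signal for Ppard, and for differences near 0 the direction depended on the setting. In the deposited values, where the median of all probe sets was -0.22, the difference turned to -0.15 for Ppara, -0.18 for Nr1h3, -0.12 for the brighter Nr1i2 probe set, -0.02 for Nr1i3, -0.02 for the dimmer Ppard probe set and -0.10 for 1 Nr5a2 probe set. The same setting gave list medians of -0.16 for PPARA, -0.36 for PPARG, -0.17 for LXR, -0.17 for FXR, -0.11 for HNF4A and -0.23 for NR5A2 targets, -0.16 for other receptors and -0.11 for co-regulators, all of which carry that shift.

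With each array centred on its median, Hnf4a turned to 0.05 and 0.04 on a pair of probe sets and a pair of Ppara probe sets turned to 0 and 0.01, and medians were 0.08 for PPARA, 0.07 for FXR, 0.14 for PXR and 0.13 for HNF4A targets. With arrays scaled to 1 trimmed mean, these Hnf4a probe sets gave 0.02 and 0.01, and medians were 0.04 for PPARA, 0.04 for FXR, 0.11 for PXR and 0.10 for HNF4A targets. As the mean over a gene's probe sets, Ppara gave -0.03 and Rxra 0.08, and medians were 0.12 for PXR targets, -0.07 for CAR targets and 0.01 for other receptors. The cause of these changes was not tested.

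Over all probe sets, 47 were called in the deposited values, 1 with 1 prior variance and 1 by Student's test, against 25. PPARG targets had 1 call with each array centred, 1 with an offset, 1 with the replicate block, 1 by means over probe sets and 0 with 1 prior variance, against 2. PPARA targets had 1 call, Vnn1, in the deposited values, with dim probe sets left out and with the replicate block, against 0. HNF4A targets had 0 calls with each array centred and with 1 prior variance, and 2 with the block, the second being Pck1, a gluconeogenic enzyme named here after its value was seen.

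Deviations of same-numbered arrays were weakly correlated, at -0.007, 0.011 and 0.032 over all probe sets and -0.057, 0.089 and 0.156 over the brighter ones. Differently numbered arrays lay between -0.227 and 0.148 over the brighter ones. Such weak values cannot decide whether the replicate numbers pair the pools. With the replicate block, Pparg stayed at -0.92 with adjusted p of 0.614.

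With 1 array left out, the differences ran from -0.04 to 0.09 and from -0.16 to 0.05 for 2 Ppara probe sets, -0.85 to 0.75 for Ppard, -0.13 to 0.06 and -0.20 to 0.14 for Rxra, -0.01 to 0.16 for Nr1h3, -0.14 to 0.03 for Nr1h4, -0.12 to 0.06, -0.06 to 0.10 and -0.28 to 0.04 for Hnf4a, and -0.16 to 0.06 for 1 Nr5a2 probe set. The number of calls over all probe sets ran from 6 (without A/J replicate 2) to 23, that of PPARG targets from 0 to 1 and that of HNF4A targets from 0 to 1. List medians ran from -0.36 to -0.11 for PPARG, -0.13 to -0.02 for FXR, -0.08 to 0.17 for PXR, -0.40 to -0.06 for CAR, -0.03 to 0.04 for HNF4A and -0.10 to 0.10 for NR5A2 targets, and from 0.06 to 0.18 for other receptors.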
